A study of Mus musculus with 165 samples.

Results

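The 45 genes described here encode factors that assemble ribosomes, taken by symbol from the table of normalized counts, which lists 36255 genes. They were followed in PUER cells, a mouse myeloid progenitor line from PU.1-/- mice, grown in IL3. Their only PU.1, a transcription factor of myeloid cells, is a version joined to an estrogen receptor domain, which becomes active when 4-hydroxy-tamoxifen (OHT) is given. Every sample comes from this 1 line and carries the same deletion and the same fusion, including the cells without OHT. Undifferentiated cells in IL3 (3 libraries) were the start of both differentiations. For macrophage differentiation (IL3 conditions) 200 nM OHT was added in IL3, and 27 time points from 1h to 168h were sequenced (81 libraries). For neutrophil differentiation (GCSF conditions) IL3 was replaced by GCSF for 48 h, giving the cells called GCSF 0h (3 libraries, before OHT), and 100 nM OHT was then added in GCSF, with the same 27 time points (78 libraries, since GCSF-OHT 96h, 112h and 152h had 2 libraries each and all other groups 3). OHT was renewed together with a part of the medium in both conditions, first at 40h and then at 88h and 136h. No group without OHT was sequenced after 0h. In the OHT effects below, OHT and time in culture therefore cannot be told apart. Libraries of a group are wells of 1 plate collected together and each time point had its own plate, so p-values measure the spread between wells, and time point and plate cannot be told apart.

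Ribosome assembly starts in the nucleolus, where RNA polymerase I transcribes a long precursor of ribosomal RNA. Small nucleolar ribonucleoproteins (snoRNPs) of the box C/D type methylate this precursor and those of the box H/ACA type turn uridines into pseudouridines, while the small-subunit (SSU) processome folds and cuts it to start the 40S subunit, and another set of factors builds the 60S subunit. In blood cells, assembly is most active in dividing progenitors and is lowered as myeloid cells mature. By role the genes were Polr1a and Polr1b, the largest 2 subunits of RNA polymerase I, 3 box C/D proteins (Fbl, Nop56 and Nop58), 4 box H/ACA proteins (Dkc1, Gar1, Nhp2 and Nop10), 12 proteins of the SSU processome (Nop14, Rrp9, Utp14a, Utp15, Utp18, Utp20, Wdr43, Wdr75, Bms1, Heatr1, Ddx10 and Noc4l), 5 factors of late 40S assembly (Rrp12, Tsr1, Nob1, Ltv1 and Pno1), 14 factors of 60S assembly (Nop2, Nop16, Rrp1b, Rrp15, Rrs1, Wdr12, Bop1, Pes1, Ddx18, Ebna1bp2, Gnl3, Nip7, Noc2l and Noc3l) and 5 other nucleolar proteins (Ncl, Npm1, Nolc1, Ddx21 and Mybbp1a). In GENCODE (GRCm38), exons of 18 of the 45 overlap a gene on the opposite strand. Among them are Nop56 with Idh3b, Dkc1 with Mpp1, Wdr12 with Carf, Heatr1 with Lgals8, Rrp9 with Parp3 and Tsr1 with Srr. The exons of 4 hold small RNA genes on the same strand (Nop56, Nop58, Gnl3 and Ncl). Whether strand was used in counting is not given in the sources used here, so for these genes reads of the partner cannot be told apart.

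The libraries held 14600246 to 33147945 reads on genes, with a median of 21960878, and the limit that a count of 0 allows (3 reads) corresponded to a normalized count of 1.96 to 5.51. This limit covers counting error only. The lowest normalized count of any of the 45 genes in any library was 167.2, for Noc3l, so all 45 passed the filter on low values. Markers fixed for the labelled cells gave, in undifferentiated cells, summed normalized counts of 83.9 to 101.6 for 6 macrophage markers and of 58043 to 60405 for 6 neutrophil markers, and at 168h 1625 to 1893 and 80537 to 92043 in IL3, against 4141 to 4993 and 164024 to 177773 in GCSF. The macrophage marker C1qa stayed at or under 3 reads in each of these groups, as did the progenitor marker Cd34. The same held for 5 of 9 markers of other lineages, among them Pf4, Cd3e and Cpa3 (megakaryocytes, T cells and mast cells). All 9 summed to normalized counts of 540 to 640 in undifferentiated cells. At 168h they summed to 275 to 285 in IL3 and 232 to 274 in GCSF. The authors set IL3-OHT 96h and 144h aside, and here these 6 libraries were left out of the fit, except where a time point of either condition was set against the mean of those before and after it.

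The sequence at the start of these genes was examined for motifs that transcription factors bind, and examples are printed so that they can be set beside the values. RefSeq (GRCm38.p6) gives a window of 250 bases before to 50 bases after the start for 40 of the 45 genes. Each was searched on both strands for CACGTG, the E-box that MYC and related factors bind, CCGGAAG, a core of the sites of ETS factors, and GAGGAA, the core that PU.1 itself prefers. CACGTG stood in the windows of 9 genes (22.5%), against 8.09% of all genes with a window and 10.9% of those tested here. The shares were 37.5% against 9.93% and 17.9% for CCGGAAG, and for GAGGAA 18 of 40 genes against 31.3% and 30.5%. Such matches describe the sequence and are not binding sites. In 7 of the 9 genes the E-box lay downstream of the start and in the other two upstream of it. Of these 9, the genes with the 3 largest and the smallest rise at IL3-OHT 8h are shown, with the E-box in capitals and up to 12 bases on each side: Utp20 at chr10:88826765-88826789 (minus strand), Nop2 at chr6:125131811-125131840 (plus strand), Pno1 at chr11:17211540-17211564 (minus strand) and Tsr1 at chr11:74898092-74898121 (plus strand).
Utp20: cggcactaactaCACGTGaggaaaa
Nop2: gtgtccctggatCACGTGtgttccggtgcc
Pno1: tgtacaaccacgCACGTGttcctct
Tsr1: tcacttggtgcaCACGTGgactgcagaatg

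Nop2 and Utp18 were the genes with both CACGTG and CCGGAAG in the 250 bases before the start, which are printed 5′ to 3′ for that reason, with both motifs in capitals on whichever strand they were found (chr6:125131633-125131882, plus strand, and chr11:93885767-93886016, minus strand). The E-box started 60 bases before the start in Nop2 and 20 bases before it in Utp18.
Nop2: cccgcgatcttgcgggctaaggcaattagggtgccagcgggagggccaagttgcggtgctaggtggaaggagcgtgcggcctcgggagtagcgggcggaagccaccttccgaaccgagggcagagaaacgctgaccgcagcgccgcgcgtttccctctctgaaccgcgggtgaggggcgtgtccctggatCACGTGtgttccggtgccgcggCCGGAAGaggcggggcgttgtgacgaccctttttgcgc
Utp18: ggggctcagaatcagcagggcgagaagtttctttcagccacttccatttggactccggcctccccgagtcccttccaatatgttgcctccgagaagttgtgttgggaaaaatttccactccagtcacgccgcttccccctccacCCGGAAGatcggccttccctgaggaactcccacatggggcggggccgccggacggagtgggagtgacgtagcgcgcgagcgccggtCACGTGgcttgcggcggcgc

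Over the whole course, the biogenesis factors rose together in the first hours after OHT in IL3. They fell back by 12h and drifted below their starting level. In GCSF they moved little from GCSF 0h for 4 h, fell at 8h and then drifted down as well. In the test of any change over time (limma's moderated F, with a log2 difference over 0.58 at 1 time point or more from undifferentiated cells in IL3 and from GCSF 0h in GCSF), 41 of 45 changed in IL3 and 42 of 45 in GCSF. Of all 17414 genes tested, 69.7% changed in IL3 and 47.7% in GCSF. The 4 genes that did not pass in IL3 were Ddx10, Utp15, Nop10 and Npm1, and the 3 in GCSF were Bms1, Pes1 and Ebna1bp2. In IL3 conditions 16 genes had their highest mean at 4h, 28 at 8h and Nop10 at 12h. In GCSF conditions 17 were highest at 2h and 16 at 3h. The lowest means came late, at 104h to 168h in 43 of 45 genes in IL3 and at 112h to 160h in 44 of 45 in GCSF.

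The size of this excursion differed between the genes. In IL3 the highest mean was 8.47 times the lowest for Polr1b, 7.60 times for Dkc1, the pseudouridine synthase of box H/ACA snoRNPs, and 6.95 times for Tsr1, a late 40S factor, with a median of 3.70 over the 45. The least variable were Npm1 (nucleophosmin, 1.63 times) and Rrp1b (1.71 times). In GCSF the median was 2.58, from 1.25 for Bms1, a GTPase of the SSU processome, to 5.62 for Rrp12, which takes part in late 40S maturation and export. As means of a few libraries at 27 or 28 time points, these ratios include the spread between wells.

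**Figure D1:**
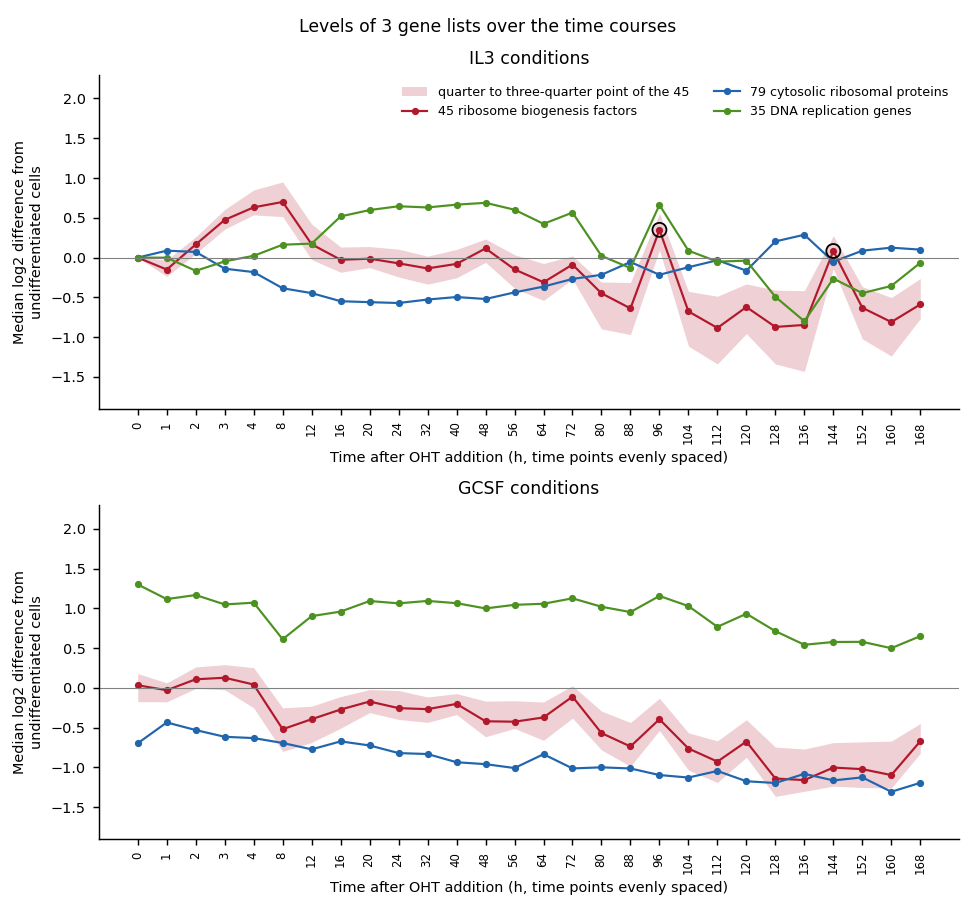
Median log2 difference from undifferentiated cells (y axis) at each time point (x axis, hours after OHT, evenly spaced) for the 45 biogenesis factors (red, with a band from the lower to the upper quartile), 79 cytosolic ribosomal proteins (blue) and 35 DNA replication genes (green). The red line reached 0.70 at IL3-OHT 8h and -0.52 at GCSF-OHT 8h, and the circled time points, IL3-OHT 96h and 144h, stood at 0.35 and 0.083.

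**Figure D2:**
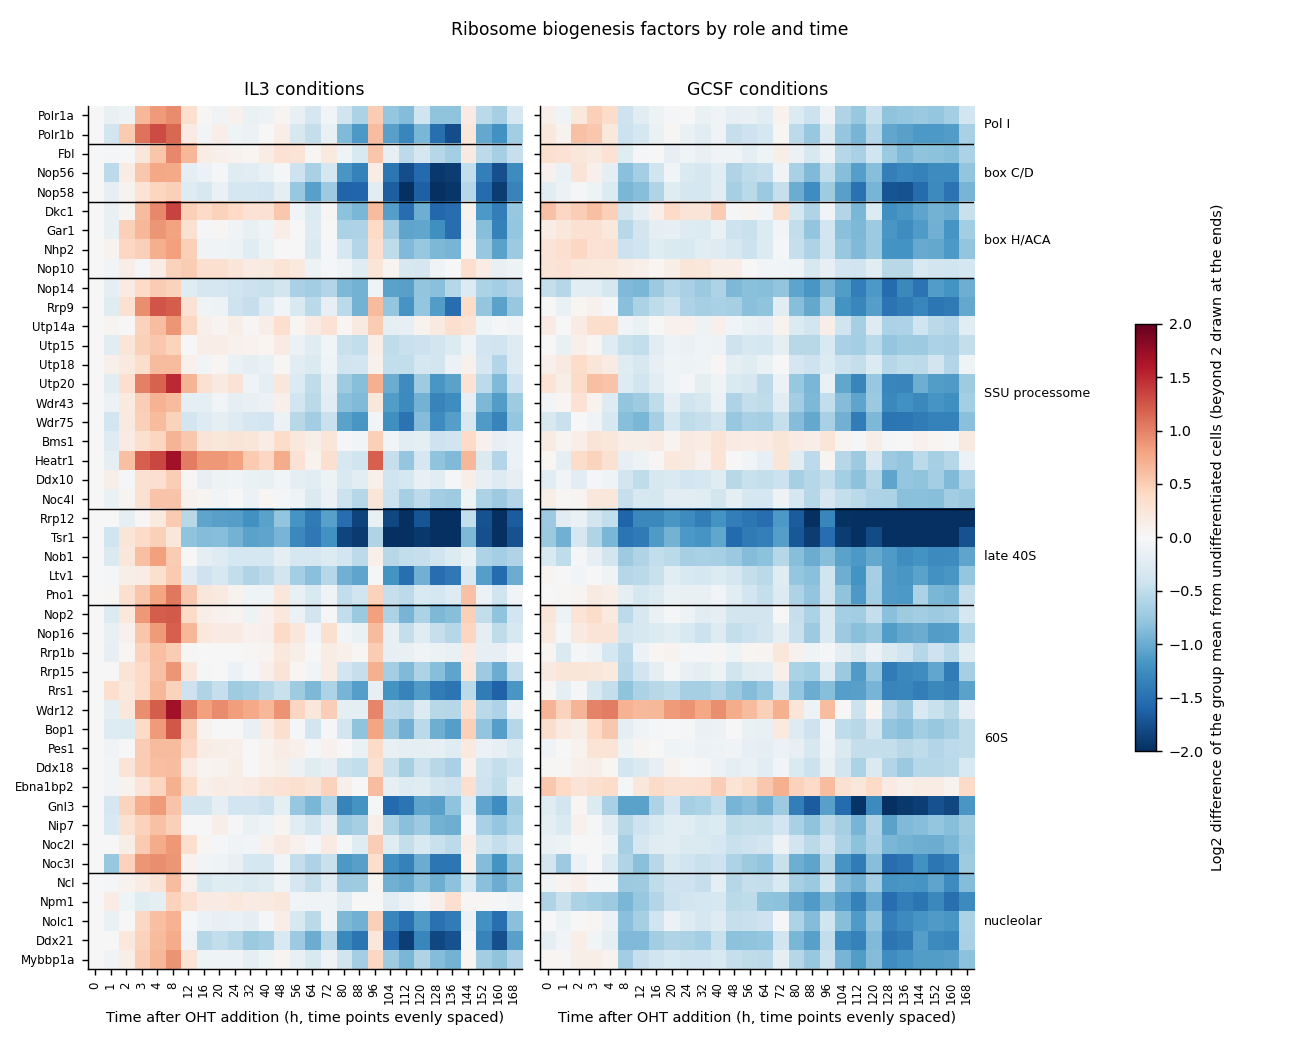
Log2 difference of each group mean from undifferentiated cells (colour, red higher and blue lower, values beyond 2 drawn at the ends of the scale) for the 45 genes (rows, grouped by role) at each time point (columns) in IL3 conditions (left) and GCSF conditions (right). All 45 rows are red at IL3-OHT 8h, and 3 of 45 are above undifferentiated cells at GCSF-OHT 8h.

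After the GCSF pre-treatment, before OHT, the biogenesis factors stood near their starting level. GCSF, the loss of IL3 and the plate cannot be told apart here. After 48 h in GCSF without OHT, 2 of 45 rose and 3 fell, below the shares of all genes (13.0% rose and 20.7% fell), and the median log2 fold change was 0.033 against -0.092 over all genes tested. Wdr12, which forms a 60S assembly complex with Pes1 and Bop1, held 447, 465 and 541 normalized counts in undifferentiated cells and 777, 766 and 780.1 at GCSF 0h, and Dkc1 held 1045, 1137 and 1197 against 1689, 1660.1 and 1698. Both rose, without overlap of the groups, with log2 fold changes of 0.68 ± 0.10 (SE), adjusted p = 2.38e-09, and 0.58 ± 0.089 (SE), adjusted p = 9.3e-09. Tsr1 fell from 2701, 2791 and 2837 to 1743, 1625 and 1622, the largest fall of the 45 at -0.74 ± 0.069 (SE), adjusted p = 7.15e-18. Rrp12 (-0.73) and Npm1, a histone chaperone of the nucleolus (-0.59), also fell. Dkc1 and Npm1 lay close to the fold threshold. Dkc1 was no longer called without the libraries numbered 1 (0.52), by DESeq2 (0.574) or with a pseudocount of 5 (0.5786). Npm1 was no longer called without the libraries numbered 2 (-0.54) or by edgeR (-0.56). Pno1, which acts in late 40S assembly, moved least (6.3e-05). The ribosomal proteins, the products these factors put together, did differ at this point, with 67 of 79 lower (median -0.70), and of 35 DNA replication genes 31 were higher (median 1.30).

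In IL3, OHT was followed by a shared rise of the biogenesis factors that reached 29 of 45 genes at 8h. The rise was seen after 2 h, when 39 of 45 stood above undifferentiated cells. At 3h 12 of 45 had risen (all genes 7.04%), at 4h 30 of 45 (all genes 8.63%) and at 8h 29 of 45 (all genes 11.8%). The median log2 fold change was 0.47, 0.63 and 0.70 at 3h, 4h and 8h, against -0.075 over all genes at 8h. At 8h all 45 log2 fold changes were above 0. In a bulk sample, more cells of a type and more RNA per cell cannot be told apart.

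The largest rises were those of Wdr12, Heatr1, Utp20 and Dkc1. Wdr12 went from 447, 465 and 541 normalized counts to 1641, 1552 and 1456 (1.68 ± 0.10 (SE), adjusted p = 6.87e-31, a rise of 3.20 times). Heatr1, which is needed for transcription and early processing of the ribosomal RNA precursor, went from 1705, 1666 and 1640.2 to 5595, 5296 and 5100.0 (1.67 ± 0.075 (SE), adjusted p = 1.74e-41). For both, the lowest library at 8h was well above the highest undifferentiated one. Utp20, a large scaffold protein of the SSU processome whose E-box window is printed above, rose from 1261, 1148 and 1207 to 3553, 3282 and 3372 (1.497 ± 0.088 (SE), adjusted p = 2.06e-31), and Dkc1 from 1045, 1137 and 1197 to 2960.1, 2861 and 2805 (1.35 ± 0.089 (SE), adjusted p = 1.4e-27). At the other end Tsr1 held 2701, 2791 and 2837 before and 3309, 3169 and 3227 at 8h, a log2 difference of 0.22 ± 0.069 (SE), adjusted p = 0.00429, which was under the fold threshold although the groups did not overlap.

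By role, both RNA polymerase I subunits rose (Polr1b 1.15, Polr1a 0.95), as did 2 of 3 box C/D proteins, led by the methyltransferase Fbl (fibrillarin, 0.96), and 3 of 4 box H/ACA proteins, all but Nop10 (0.45). Of the SSU processome 7 of 12 rose, the lowest of the group being Utp15 (0.45). In 60S assembly 10 of 14 rose, among them Bop1 (1.24), the rRNA methyltransferase Nop2 (1.22) and Nop16 (1.19), and Rrs1 was the lowest at 0.46. In late 40S assembly 1 of 5 rose (Pno1, 1.05), with a median of 0.52. Of the other nucleolar proteins 4 of 5 rose, with Mybbp1a, a regulator of transcription in the nucleolus, highest (0.90) and Npm1 lowest (0.46). The 9 genes with an E-box in their window had a median of 0.64 and the 31 others with a window 0.71. For CCGGAAG the medians were 0.71 (15 genes) and 0.64 (25 genes), and for GAGGAA 0.67 (18 genes) and 0.72 (22 genes). These medians describe the windows and were not tested.

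Other genes of the pathway rose in a smaller share. Of the genes of ribosome assembly listed besides the 45, 34 rose, 4 fell and 77 did not pass at IL3-OHT 8h (median 0.37). The largest rises were those of Wdr46, a protein of the SSU processome (1.45), the helicase Ddx31 (1.43) and Mdn1, the large ATPase that strips factors from 60S precursors (1.36). The largest falls were those of Nop53 (-1.33), Sbds, a late 60S maturation factor (-0.84), and Taf1a, a subunit of the promoter selectivity factor of RNA polymerase I (-0.76). Of the 14 other genes of the RNA polymerase I machinery 3 rose and 1 fell (median 0.059), of 33 other 40S factors 12 rose (median 0.43), and of 45 other 60S factors 12 rose and 3 fell (median 0.32). The ribosomal proteins did not share the rise. Of 79, 7 fell and the median was -0.39, while of the 35 DNA replication genes 2 rose (median 0.16). Of all 17414 genes DESeq2 called 2813 lower at this time point, a larger share than the falls in either list. Over the same 8 h the summed macrophage markers went from between 83.9 and 101.6 to between 1741 and 1867 normalized counts, the progenitor markers from between 11239 and 12502 to between 5583 and 5835, and the neutrophil markers from between 58043 and 60405 to between 33483 and 36997. Their part in the result was not tested.

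**Figure D3:**
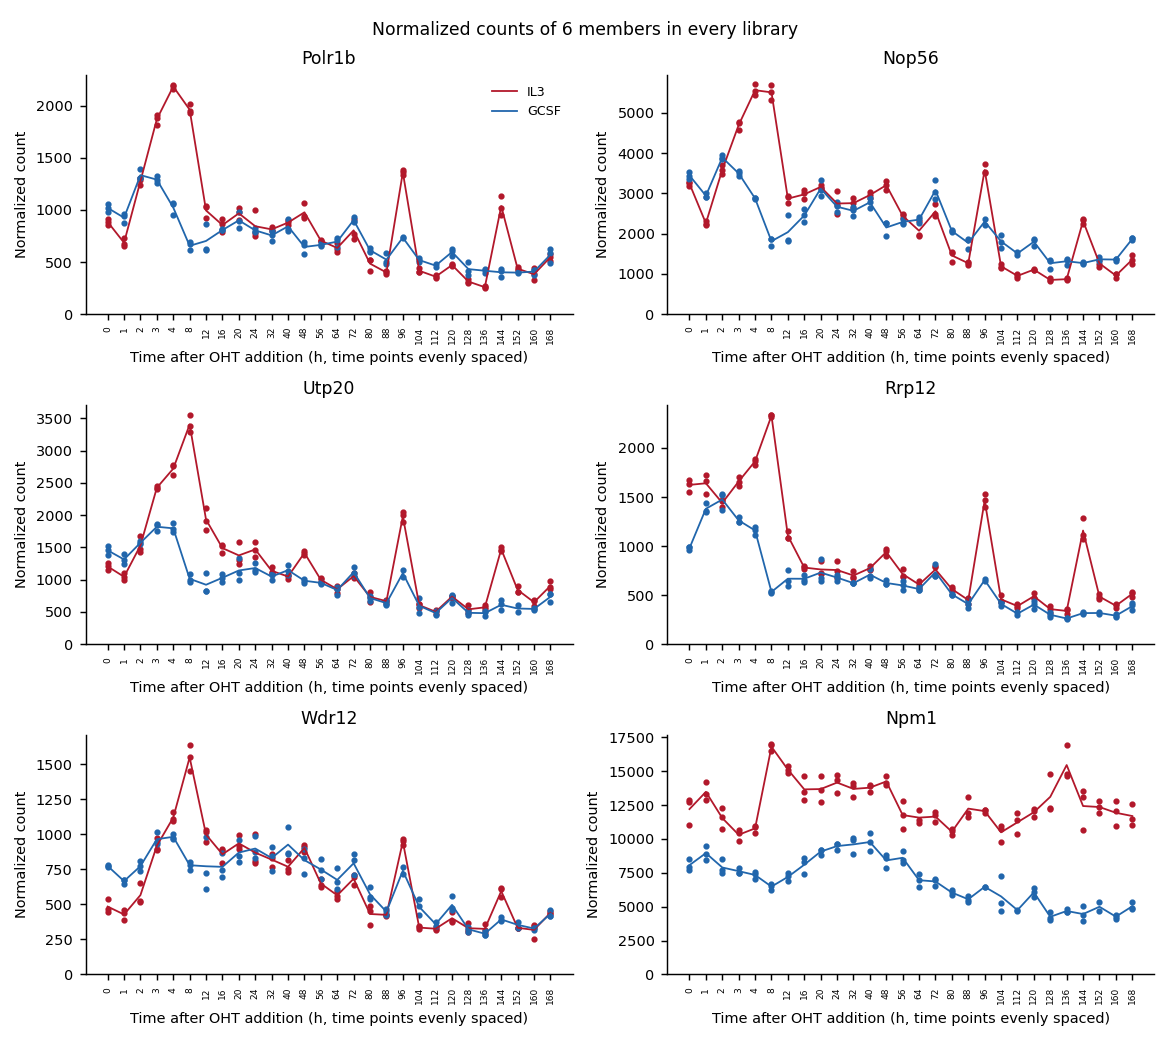
Normalized counts (y axis, from 0) of Polr1b, Nop56, Utp20, Rrp12, Wdr12 and Npm1 in every library (points) and the group means (lines) at each time point (x axis, hours after OHT, evenly spaced), in IL3 conditions (red) and GCSF conditions (blue). The first 5 genes peak at 4h or 8h in IL3 and again at IL3-OHT 96h and 144h, and the mean of Npm1 is higher in IL3 than in GCSF at all 27 time points after OHT.

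In GCSF the same 8 h of OHT went the other way, with 19 of 45 biogenesis factors lower at 8h and the rest between 0.0099 and the threshold. Against GCSF 0h a single call was made in the first 4 h, the rise of Rrp12 at 2h (3.90% of all genes rose then). Smaller rises came in these hours, since the highest mean of the GCSF course lay at 1h for 1 gene, 2h for 17, 3h for 16 and 4h for 4. Between 4h and 8h 20 of 45 fell, against 2.13% of all genes, and all 45 log2 differences of that step were below 0. Against GCSF 0h 19 of 45 were lower at 8h (all genes 4.01%), with a median log2 fold change of -0.56 against -0.0032 over all genes. Between the same groups the summed macrophage markers went from between 141.7 and 214.4 to between 3821 and 4071 normalized counts, the progenitor markers from between 5836 and 6456 to between 4254 and 4684, and the neutrophil markers from between 58797 and 62867 to between 49369 and 53043. Their part in the fall was not tested.

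Dkc1 held 1689, 1660.1 and 1698 normalized counts at GCSF 0h and 779, 907 and 940.3 at GCSF-OHT 8h (-0.95 ± 0.089 (SE), adjusted p = 4.88e-17). Nop56, a core protein of box C/D snoRNPs, fell from 3525, 3443 and 3365 to 1698, 1860.2 and 1875 (-0.93 ± 0.066 (SE), adjusted p = 1.34e-24). The fall brought both below their level in undifferentiated cells. Rrp12 fell from 989.8, 962 and 987 to 547, 519 and 534 (-0.88 ± 0.076 (SE), adjusted p = 4.9e-19), and Rrp9, a protein of the snoRNP that guides the first cuts of the precursor, from 819.7, 800.4 and 807 to 451, 454 and 444 (-0.85 ± 0.10 (SE), adjusted p = 8.83e-12). Wdr12, the gene with the largest rise in IL3, moved least, with 777, 766 and 780.1 before and 749, 806 and 785 after (0.0099 ± 0.10 (SE), adjusted p = 0.981), and its libraries overlapped. By role, 2 of 3 box C/D, 3 of 4 box H/ACA, 3 of 5 late 40S and 4 of 5 nucleolar proteins fell, and 1 of 2 RNA polymerase I subunits (Polr1b, -0.64), but 2 of 12 in the SSU processome (Rrp9 and Wdr43, -0.73) and 4 of 14 in 60S assembly, led by Rrs1 (-0.83). Of the other genes of the pathway 17 fell and 98 did not pass (median -0.29), with the largest falls in Ppan (-1.15), Bysl (-0.74) and the helicase Ddx51 (-0.70). Of the 35 DNA replication genes 22 fell (median -0.66). Of 79 ribosomal proteins limma called 0, edgeR 0 and DESeq2 0, with 8 at an unadjusted p under 0.05 and a median of 0.016. The doses of OHT differed between the conditions (200 nM in IL3 and 100 nM in GCSF), and dose and cytokine cannot be told apart.

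The difference between the conditions was tested directly. As the interaction of OHT with condition (GCSF-OHT 8h minus GCSF 0h, less IL3-OHT 8h minus undifferentiated), 44 of 45 genes were lower in GCSF, against 11.4% of all genes, and the median difference was -1.29 on the log2 scale (0.08 over all genes). The largest differences were those of Dkc1 (-2.30 ± 0.13 (SE), adjusted p = 4.13e-33), Rrp9 (-2.05 ± 0.15 (SE), adjusted p = 6.9e-25), Utp20 (-2.02 ± 0.12 (SE), adjusted p = 2.69e-29) and Nop2 (-1.98 ± 0.10 (SE), adjusted p = 1.1e-37). Nop10 was the exception, with -0.57 ± 0.089 (SE), adjusted p = 2.6e-08, just under the fold threshold, and -0.65 without the libraries numbered 3, where it was called. In levels, GCSF-OHT 8h was lower than IL3-OHT 8h for 43 of 45 genes (all genes 13.5%), with a median of -1.36, and these values share the 8h libraries with the interaction. Of the other genes of the pathway 61 were lower, 3 were higher and 51 did not pass in the interaction (median -0.67), the highest being Nop53 (1.34) and the lowest Wdr46 (-1.95). Of 79 ribosomal proteins 8 were higher and 1 lower (median 0.40).

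**Figure D4:**
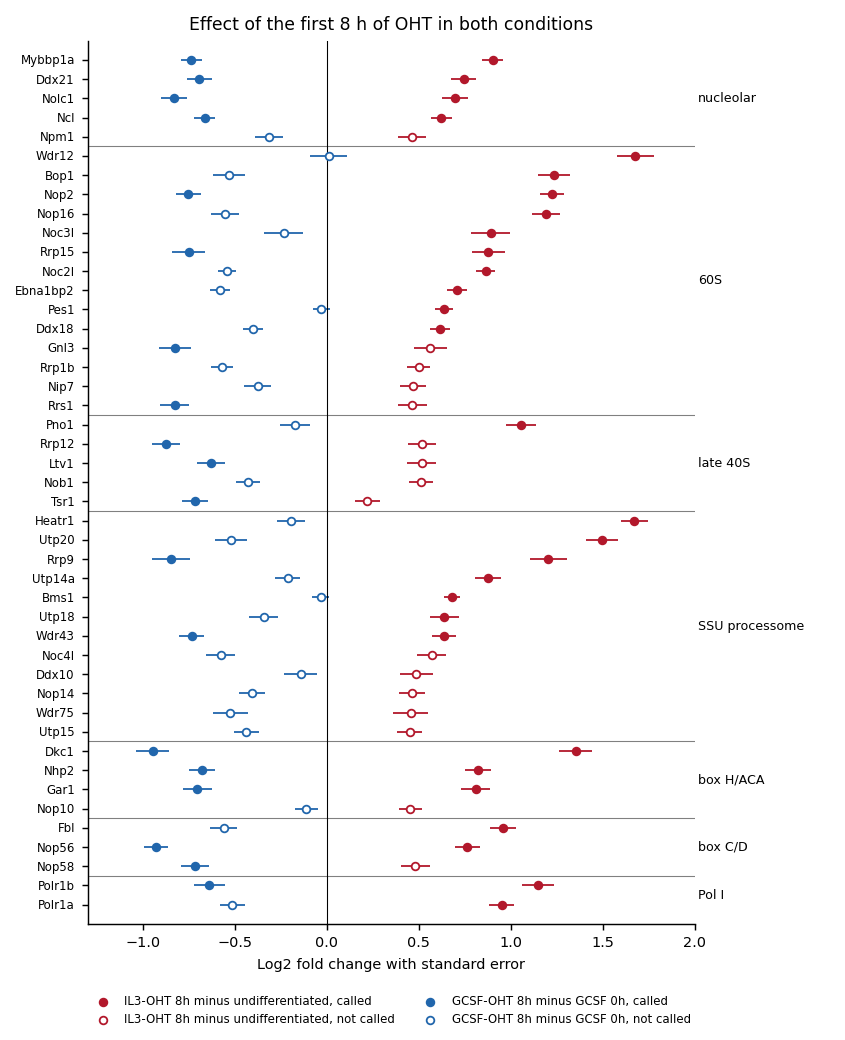
Log2 fold change at 8h with its standard error (x axis) for each of the 45 genes (rows, grouped by role) in IL3 (red, IL3-OHT 8h minus undifferentiated) and GCSF (blue, GCSF-OHT 8h minus GCSF 0h), filled where called. All red points lie above 0, from 0.22 to 1.68, and the blue points lie between -0.95 and 0.0099.

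The rise in IL3 was brief. From 8h to 12h 24 of 45 genes fell, against 2.50% of all genes, with a median of -0.63. Rrp12 fell from 2336, 2314 and 2335 normalized counts to 1079, 1081 and 1156 (-1.08 ± 0.076 (SE), adjusted p = 8.53e-24), and Tsr1 from 3309, 3169 and 3227 to 1543, 1709 and 1527 (-1.02 ± 0.069 (SE), adjusted p = 5.46e-25). Both then stood below undifferentiated cells. Polr1b (-0.98) and Nop56 (-0.94) came back to near their starting level, with 921, 1030.2 and 1033 normalized counts of Polr1b at 12h against 909, 889 and 857 in undifferentiated cells. Nop10 moved least (0.05, and the groups overlapped), and Wdr12 and Heatr1, the most raised at 8h, still stood 1.04 and 1.02 above undifferentiated cells. Of the other genes of the pathway 25 fell and 90 did not pass (median -0.39), led by Pwp2 (-0.97), a scaffold protein of the SSU processome. These values share the 8h libraries with the rise at 8h. In GCSF, where the fall came first, limma called 0 of 45 between 8h and 12h (all genes, 2.67% in either direction), edgeR 0 and DESeq2 0. At an unadjusted p under 0.05, 18 were higher and 2 lower at 12h, with a median of 0.083 and the smallest change in Bms1 (-0.0032).

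From 16h to 72h the biogenesis factors stayed near the start in IL3, with medians from -0.31 to 0.12 on the log2 scale against undifferentiated cells, and between -0.42 and -0.11 in GCSF. Between 48h and 56h 2 of 45 fell in IL3 (all genes 2.72%), Dkc1 (-0.60) and Nop58 (-0.59). Between 72h and 80h 14 of 45 fell in IL3 (all genes 2.26%) and 7 of 45 in GCSF (all genes 0.408%), and in each condition all 45 log2 differences of the step were below 0. The genes that fell in IL3 were led by Nop58 (-0.87), Dkc1 (-0.84) and Nop56 (-0.81), and those in GCSF by Rrp15 (-0.73), Dkc1 (-0.67) and Gnl3 (-0.66). At 160h 32 of 45 were lower than undifferentiated cells in IL3 (median -0.81, all genes 17.4%) and 41 of 45 were lower than GCSF 0h in GCSF (median -1.03, all genes 13.9%). In the last step, from 160h to 168h, 4 of 45 rose in each condition (all genes 0.919% in IL3 and 0.747% in GCSF), and the medians of the step were 0.33 and 0.39. Of the steps between neighbouring time points, 11 of 25 in IL3 and 9 of 27 in GCSF held a call, and they summed to 26 rises and 43 falls in IL3 and 13 rises and 40 falls in GCSF. As shares of all tests of a gene in a step these were 2.31% and 3.82% in IL3 (all genes 1.76% and 1.88%) and 1.07% and 3.29% in GCSF (all genes 0.935% and 0.870%).

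At the endpoint of macrophage differentiation, 23 of 45 biogenesis factors had fallen and the other 22 lay between the threshold and -0.045. Against undifferentiated cells 15.2% of all genes were lower at IL3-OHT 168h, and the median was -0.59 for the 45 and -0.033 for all genes. Tsr1 went from 2701, 2791 and 2837 normalized counts to 805, 858 and 835 (-1.74 ± 0.069 (SE), adjusted p = 1.05e-45), and Rrp12 from 1556, 1638 and 1678 to 523, 486 and 533 (-1.66 ± 0.076 (SE), adjusted p = 2.76e-40), so that every late library held less than the lowest early one. The box C/D proteins Nop58 (-1.34) and Nop56 (-1.26) followed, while the methyltransferase they work with, Fbl, was at -0.46 and was not called. Late 40S assembly had 4 of 5 lower (median -0.999), the nucleolar proteins 4 of 5 (median -0.81), box H/ACA 3 of 4 (median -0.74), the SSU processome 5 of 12 (median -0.34) and 60S assembly 4 of 14 (median -0.39), of which Rrs1 fell most (-1.16) and Rrp1b least (-0.045). Of the other genes of the pathway 29 fell and 86 did not pass (median -0.38), and of 79 ribosomal proteins 2 rose (median 0.10).

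At the endpoint of neutrophil differentiation 27 of 45 were lower than at GCSF 0h (all genes 12.6%, median -0.68 against 0 over all genes), and 29 of 45 lower than in undifferentiated cells (all genes 23.6%, median -0.67). Rrp12 fell from 989.8, 962 and 987 normalized counts at GCSF 0h to 351, 395 and 419 (-1.34 ± 0.076 (SE), adjusted p = 1.99e-32). Rrs1, which joins early 60S precursors, fell by 1.09, Nhp2 by 1.04 and Dkc1 by 1.03 on the log2 scale, and all 3 box C/D and all 4 box H/ACA proteins were lower. Bms1 held 2065, 1974 and 2112 at GCSF 0h and 2069.9, 1969 and 2169 at 168h, the smallest change (0.013). Against undifferentiated cells Rrp12 (-2.06) and Tsr1 (-1.74) fell most, then Npm1 (-1.28) and Gnl3 (nucleostemin, -1.17), and Utp18 moved least (-0.089). Of the other genes of the pathway 30 fell, 1 rose and 84 did not pass against GCSF 0h (median -0.39), with the largest falls in Ppan (-1.49), Nol6 (-1.19) and Naf1 (-1.13) and the rise in Surf6 (0.61). Of 79 ribosomal proteins 27 fell (median -0.51), and of 35 DNA replication genes 15 (median -0.52). Both fits to undifferentiated cells, here and at IL3-OHT 168h, share those 3 libraries.

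Whether the OHT effect at 168h differed between the conditions was again tested as an interaction. It was called for 5 of 45 genes, against 25.7% of all genes in either direction, and its median was -0.15. Tsr1 (0.74 ± 0.10 (SE), adjusted p = 1.4e-10), the nucleolar helicase Ddx21 (0.63) and Nop58 (0.61) had fallen less in GCSF, and Wdr12 (-0.70) and Npm1 (-0.62) had fallen more, with Ncl (nucleolin) at 0.0094. Without the libraries numbered 3 the values of Ddx21 and Nop58 were 0.57 and 0.56, and without those numbered 2 that of Nop58 was 0.57, and these were then not called. For Tsr1 the start differed, since it was lower at GCSF 0h, and the libraries at 168h overlapped, with 805, 858 and 835 normalized counts in IL3 and 768, 895 and 839 in GCSF.

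Averaged over the 25 time points that both conditions share outside the 2 excluded ones, the difference between GCSF-OHT and IL3-OHT was called for 1 of 45 genes (all genes 15.1% lower in GCSF), and the median was -0.21. The gene was Npm1, lower in GCSF by 0.90 ± 0.015 (SE) on the log2 scale (adjusted p = 4.5e-86). Npm1 held 16895, 17017 and 16497 normalized counts at IL3-OHT 8h against 6520.4, 6251 and 6677 at GCSF-OHT 8h, and 11004, 12580.3 and 11479.6 against 4936, 5329 and 4821 at 168h, and was already lower at GCSF 0h. The genome holds many processed copies of Npm1, and how reads were shared between them is not given in the sources used here. Ddx21 differed least (-0.015). Of the ribosomal proteins 70 of 79 were lower in GCSF (median -0.70), while 24 of 35 DNA replication genes were higher (median 0.71).

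The time points left out so far, IL3-OHT 96h and 144h, held the other large movement of the biogenesis factors. Both lie 8 h after an exchange of medium with new OHT. The authors set both aside because their expression over all genes differed from the time points before and after. A difference from those neighbours was therefore known in advance. The paper says that it could be a transient effect of OHT, which was not tested here. Against the mean of 88h and 104h, 37 of 45 genes were higher at IL3-OHT 96h (all genes 9.36%), with a median of 1.06, and against 136h and 152h 32 of 45 were higher at IL3-OHT 144h (all genes 8.59%), with a median of 0.83. At 96h the median stood 0.35 above undifferentiated cells, and 36 of 45 genes were above them, against -0.64 and -0.68 at the neighbouring time points.

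Ddx21 held 1733, 1634 and 1645 normalized counts at 88h, then 5195, 5632 and 5369.9 at 96h, then 1414, 1656 and 1578 at 104h (1.75 ± 0.059 (SE), adjusted p = 1.34e-52). Polr1b held 383, 399.6 and 415, then 1334, 1367 and 1381, then 439, 402 and 407 (1.74 ± 0.074 (SE), adjusted p = 1.82e-43), and Rrp12 465, 412 and 476, then 1398, 1530.0 and 1468, then 504, 438 and 432 (1.69 ± 0.066 (SE), adjusted p = 1.21e-46). In each of the 3 genes every library at 96h was higher than every library of its neighbours. Dkc1 rose by 1.65, and Npm1 moved least (0.091). At 144h the largest rises were those of Polr1b (1.62 ± 0.074 (SE), adjusted p = 1.23e-40), with 266, 263 and 246 normalized counts at 136h, then 955, 1018 and 1136 at 144h, then 429, 453 and 424 at 152h, then Rrp9 (1.52), Ddx21 (1.51) and Rrp12 (1.51), and Utp14a moved least (0.15). Every role took part at 96h, with both RNA polymerase I subunits, 3 of 3 box C/D, 3 of 4 box H/ACA, 8 of 12 SSU processome, 5 of 5 late 40S, 12 of 14 60S and 4 of 5 nucleolar proteins higher. Late 40S assembly was raised in full at 96h, from 0.63 for the nuclease Nob1 to 1.69 for Rrp12. The 8h and 96h values come from different libraries, and the difference between them was not tested.

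The same hours in GCSF gave less. At GCSF-OHT 96h, which has 2 libraries, 5 of 45 genes were higher than at 88h and 104h (all genes 1.12%, median 0.38), namely Utp20 (0.85), Ddx21 (0.68), Rrp12 (0.68), Wdr12 (0.67) and Heatr1 (0.60), and Rrp1b moved least (0.086). Without the libraries numbered 2, which leaves 1 library at GCSF-OHT 96h, 3 of 45 were called and Wdr12 was at 0.56. Utp20 held 619.5, 615 and 676 normalized counts at 88h, then 1049 and 1154 at 96h, then 720.0, 577 and 489.5 at 104h. At GCSF-OHT 144h limma called 0 of 45 (all genes 1.85% in either direction), edgeR 0 and DESeq2 0, with 10 at an unadjusted p under 0.05, a median of 0.031 and the smallest change in Wdr75 (0.0074). The difference of the 2 rises, IL3 minus GCSF, was called for 26 of 45 genes at 96h (all genes 4.93%, median 0.66) and for 32 of 45 at 144h (all genes 5.60%, median 0.79). It was largest for Polr1b at both times (1.24 ± 0.11 (SE), adjusted p = 2.82e-17, and 1.65 ± 0.11 (SE), adjusted p = 7.18e-27) and smallest for Utp14a (-0.0097 and -0.032). Nop56 (1.18), the snoRNP chaperone Nolc1 (1.16) and Bop1 (1.14) came next at 96h, and Dkc1 (1.42), Rrp9 (1.39) and Rrp12 (1.37) at 144h.

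The first renewal of medium and OHT, at 40h, was not followed by a rise of this size at 48h. Against 40h and 56h limma called 0 of 45 at IL3-OHT 48h (all genes 1.60% in either direction), edgeR 0 and DESeq2 0, although 38 were higher at an unadjusted p under 0.05, with a median of 0.21. At GCSF-OHT 48h limma also called 0 of 45 (all genes 0.350%), edgeR 0 and DESeq2 0, with 1 higher and 18 lower at an unadjusted p under 0.05, and a median of -0.10. The smallest changes were those of Noc4l in IL3 (-0.007) and Pno1 in GCSF (-0.0028).

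Other genes moved at IL3-OHT 96h and 144h as well. Of the other genes of the pathway 52 rose, 1 fell and 62 did not pass at 96h (median 0.51), led by Mdn1 (1.54), Urb1 (1.46) and Nol6 (1.38) and with the fall in Nop53 (-0.75), and 38 rose and 1 fell at 144h (median 0.32), again with the fall in Nop53 (-0.72). Of the 35 DNA replication genes 17 rose at 96h (median 0.57) and 9 at 144h (median 0.17). Of the 79 ribosomal proteins limma called 0 at 96h, edgeR 0 and DESeq2 0, and at an unadjusted p under 0.05 53 were lower and 2 higher (median -0.14). The reads counted on genes were 20587556 to 20871972 in the 96h libraries and 20052894 to 25841035 in the 144h libraries, within the range of the whole series.

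**Figure D5:**
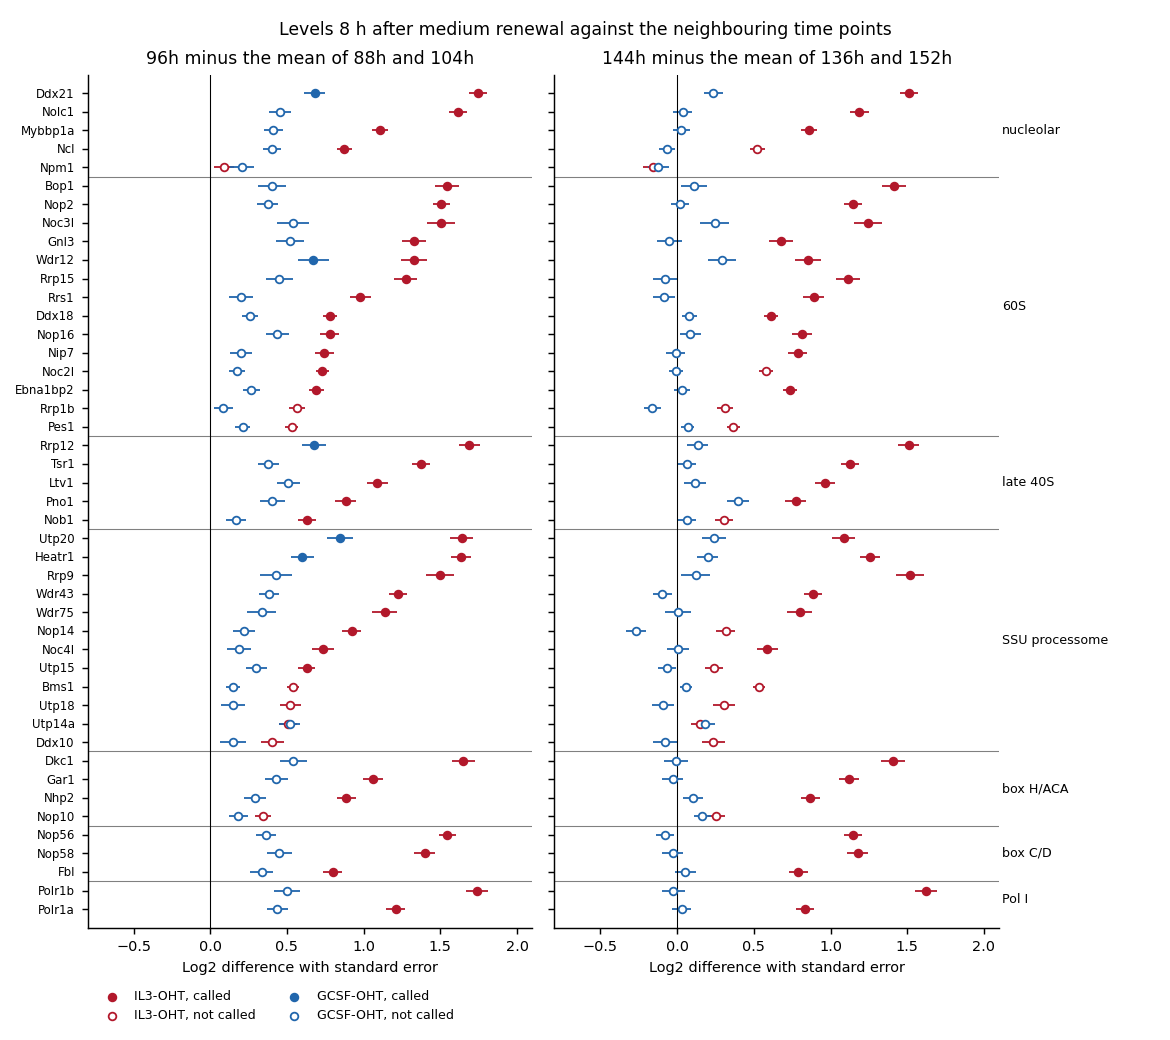
Log2 difference of 96h from the mean of 88h and 104h (left) and of 144h from the mean of 136h and 152h (right), with its standard error (x axis), for each of the 45 genes (rows, grouped by role) in IL3-OHT (red) and GCSF-OHT (blue), filled where called. The red points reach 1.75 at 96h and 1.62 at 144h, and the blue points reach 0.85 at 96h and 0.40 at 144h.

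Each time point from 32h to 160h was set against the mean of the time points 8 h before and after it. Apart from 96h and 144h in IL3, small positive differences of most biogenesis factors stood in both conditions at 72h and at 120h. This did not hold at 48h, where 44 of 45 were above 0 in IL3 (median 0.21) and 9 of 45 in GCSF (median -0.10). At 72h all 45 differences were above 0 in IL3 (median 0.34) and in GCSF (median 0.32), and limma called 2 in IL3, Nolc1 (0.63) and Nop58 (0.61), and 1 in GCSF, Rrp9 (0.61), against 0.619% and 0.201% of all genes. At 120h 40 of 45 were above 0 in IL3 (median 0.23) and 43 of 45 in GCSF (median 0.36), of which limma called 4 in GCSF (all genes 0.866%), Dkc1 (0.80), Gnl3 (0.79), Nop58 (0.68) and Noc3l (0.61). Over all genes the medians were 0, -0.000477, 0 and 0. Time point and plate cannot be told apart, and the libraries of 120h carry names of another series than the rest.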

How the data were processed

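PolyA RNA of 165 libraries was sequenced. The authors quantified reads with Salmon on GRCm38 and divided the gene counts by the DESeq2 size factor of each library, and these normalized counts (a signal per gene and library) were deposited. The Salmon version and the summing of transcripts to genes are not given in the sources used here. Reads were recovered by dividing each library by its smallest step, and 100.0% of the nonzero values came out whole, with relative deviations of at most 9.66e-15.

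log2(normalized count + 1) was fitted with limma 3.58.1 (1 mean per group, trend; R 4.3.3), for the 17414 genes that reached a normalized count of 5 somewhere. This fit had no libraries of IL3-OHT 96h or 144h, which the authors set aside, and contrasts of a time point with the mean of those before and after it came from a fit of all libraries (17439 genes). A gene was called at a Benjamini-Hochberg adjusted p under 0.05 over all genes when its log2 fold change was also beyond 0.58 in size. The fit was tested on simulated data. On the recovered reads edgeR 4.0.16 called 2138 genes higher and 2831 lower at IL3-OHT 8h, DESeq2 1.42.0 1954 and 2813, and limma 2053 and 3119. Other alternatives were the pseudocount, the filter, upper-quartile scaling, leaving out each replicate number, a replicate block, only the groups compared, and all libraries.

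In each comparison the 4 members with the largest rise, the 4 with the largest fall and the one that moved least were named, with the ends of a role group where it was described, and further members by role. Values per library and examples from other lists were chosen after their values were seen. The members and gene lists were chosen with earlier results of these data known. The differences between the rises at 96h and 144h, and each time point against its neighbours, were added after seeing the data.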

Additional observations from a re-analysis of the deposited data

Results flagged for a closer look

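GCSF and IL3 differed in 4 comparisons, each by a test of the difference itself in limma. At 8h the OHT effect differed for 44 of 45 genes, all lower in GCSF (all genes 11.4%), with Dkc1 (-2.30), Rrp9 (-2.05), Utp20 (-2.02) and Nop2 (-1.98) furthest apart on the log2 scale (GCSF minus IL3). At 168h it differed for 5 of 45, against 25.7% of all genes in either direction. These were Tsr1 (0.74), Ddx21 (0.63), Nop58 (0.61), Wdr12 (-0.70) and Npm1 (-0.62). Ddx21 without the libraries numbered 3, and Nop58 without those numbered 2 or 3, were not called. The rise at 96h differed for 26 of 45 (IL3 minus GCSF, all genes 4.93%), led by Polr1b (1.24), Nop56 (1.18), Nolc1 (1.16) and Bop1 (1.14). That at 144h differed for 32 of 45 (all genes 5.60%), led by Polr1b (1.65), Dkc1 (1.42), Rrp9 (1.39) and Rrp12 (1.37).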

How the results depend on the processing

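The counts of members called in 23 comparisons and courses stayed within 1.5 times of the reported count under every alternative run, with 1 exception. At GCSF-OHT 96h, leaving out each replicate number in turn gave 3 to 7 calls against 5. Where replicate 1 or 2 was left out, GCSF-OHT 96h, 112h or 152h could be left with 1 library, which was assumed to vary like the other groups. Of 19 members named for the smallest change in a comparison, 11 changed sign under an alternative. Upper-quartile scaling gave -0.00202 for Wdr12 (GCSF 8h), -0.014 for Bms1 (GCSF 168h), -0.023 for Ncl (difference at 168h), -0.0076 for Wdr75 (GCSF 144h), 0.0026 for Pno1 (GCSF 48h) and 0.012 for Utp14a (144h rise). edgeR gave 0.00171 for Ddx21 (GCSF against IL3), -0.012 for Ncl and 0.00858 for Pno1 (GCSF 48h), and DESeq2 -0.00684 for Pno1 (GCSF 0h). Leaving out each replicate number gave -0.029 to 0.022 for Pno1 (GCSF 0h), -0.022 to 0.041 for Wdr12, -0.028 to 0.018 for Bms1 at GCSF 12h and -8.78e-05 to 0.021 at 168h, -0.025 to 0.031 for Ncl, -0.033 to 0.016 for Noc4l (IL3 48h), -0.11 to 0.24 for Wdr75, -0.025 to 0.029 for Pno1 (GCSF 48h), and -0.11 to 0.19 and -0.13 to 0.11 for Utp14a in the 96h and 144h rises. The cause was not tested. Same replicate numbers did not mark paired wells (correlations of deviations -0.08 to 0.046 over 24 pairs), and with a replicate block 29 of 45 were called at IL3-OHT 8h, 19 at GCSF-OHT 8h, 44 in their difference and 25 in that of the 96h rise. Without a filter the median over all genes for GCSF-OHT 168h against undifferentiated cells was 0 against -0.11. Among the named members, 10 values lost and 2 gained a call.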
